A study of Mus musculus with 18 samples.

Results

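The muscle acetylcholine receptor was followed through its 5 subunit genes, Chrna1, Chrnb1, Chrnd, Chrng, and Chrne, in denervated and sham whisker pad. They were chosen by name, as the genes of the α, β, δ, γ, and ε subunits. Each gene's level was the sum of TPM (a level scaled for transcript length and library size) over its Ensembl transcripts, which made 5 of 35150 genes and 17 of 113194 transcripts. RNA came from punch biopsies of 3 mm that held both skin and muscle of the rostral whisker pad. In each of 9 adult mice 2 facial nerve branches, the superior marginal and the buccal, were transected on the right (denervated). On the left (sham) of each mouse the skin was opened and closed again over an intact nerve. The study used mice of both sexes, without stating the sex of these 9. Tissue was taken at day 1, day 3, or day 7 from 3 mice each, which gave 18 samples, 3 for each side and day. Right against left and lesion against sham cannot be told apart, since every lesion was on the right. The strain of these mice was not given in the sources used here.

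The receptor of the neuromuscular junction is a pentamer that opens on binding acetylcholine. The adult form holds α, β, δ, and ε subunits, and the form of fetal muscle has γ in place of ε, with lower conductance and longer openings. In innervated adult muscle the receptor is kept under the nerve ending, and muscle that has lost its nerve is known to make receptor along the whole fibre, including the γ form.

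The biopsies held the tissue their labels named. All 9 muscle fibre markers (among them Acta1 and Ckm) and all 4 keratinocyte markers passed the filter on low values at each day. Muscle content was lowest in mouse 1 of day 1, whose 9 muscle markers summed to 4100 TPM on the sham side and 5850 on the denervated side, against 12400 to 24300 in the other 16 samples. The summed markers of macrophages and neutrophils ran from 149 to 503 TPM in sham and from 618 to 1440 in denervated samples at day 3, and from 167 to 451 and from 1550 to 2610 at day 7, and overlapped at day 1. At day 7 the sides were also apart in the summed Schwann cell markers (204 to 360 TPM in sham and 153 to 170 in denervated samples) and muscle fibre markers (18100 to 22900 and 23200 to 24300). Their part in the results below was not tested. In bulk tissue, fewer cells of a type and less RNA per cell cannot be told apart. Estimated depth was 11500000 to 35400000 reads per sample.

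At days 3 and 7, the α, β, δ, and γ genes were many times higher on the denervated side, and the ε gene was not. Together the 5 genes reached 46.4 ± 4.27 TPM (SD, n = 3 mice) in sham and 299 ± 75.3 in denervated samples at day 3, and 62.3 ± 18.5 and 258 ± 32.5 at day 7. At day 1 the sums were 27.1 ± 10.1 and 55.7 ± 26.6 TPM, with ranges that overlapped.

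**Figure D1:**
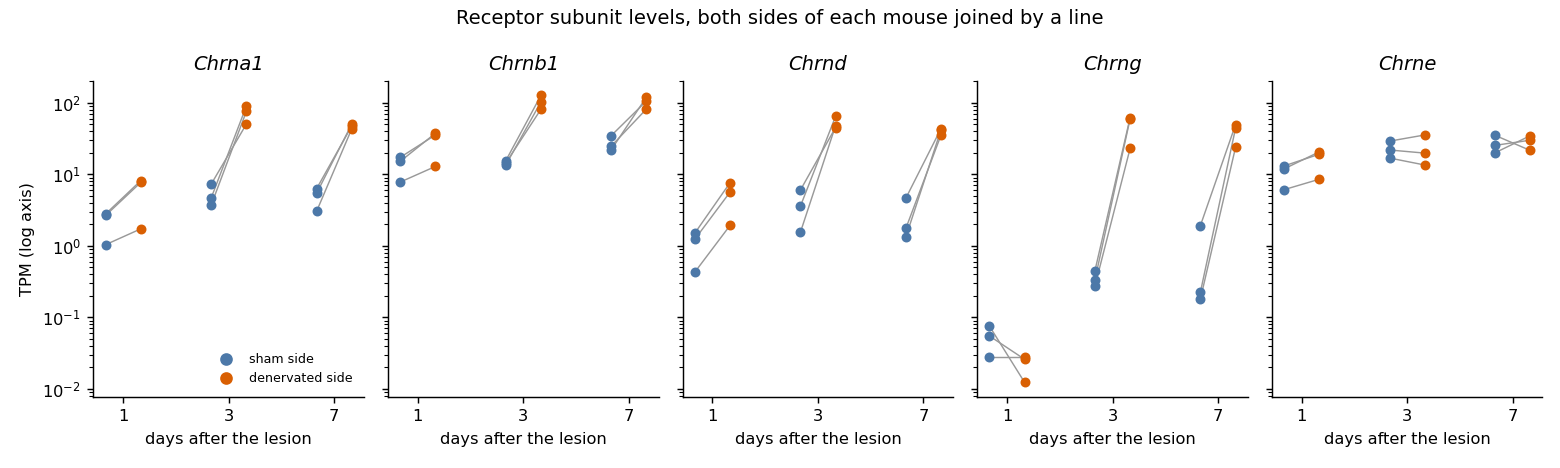
TPM of each subunit gene (log axis) in every sample by day, with the sham (blue) and denervated (orange) side of each mouse joined by a line. At days 3 and 7 the denervated samples of Chrna1, Chrnb1, Chrnd, and Chrng lie above every sham sample of that day, Chrne overlaps at all days, and Chrng is under 0.1 TPM in all samples of day 1.

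Chrna1 encodes the α subunit, which carries the main face of the acetylcholine binding sites. Chrna1 lies on chromosome 2 from 73563215 to 73580338 (GRCm38, minus strand). At day 3 it was at 7.29, 3.72, and 4.68 TPM on the sham side of mice 1, 2, and 3 and at 50.4, 75.8, and 89.7 TPM on the denervated side. The sides did not overlap, and the ratio of TPM between them was 6.92, 20.4, and 19.1 in the 3 mice. At day 7 the sham values were 6.32, 3.06, and 5.46 TPM and the denervated values 47.7, 43.5, and 50.6, again with no overlap. At day 1 the values were 1.04, 2.80, and 2.67 TPM in sham and 1.73, 8.19, and 7.74 in denervated samples. Each mouse was higher on the denervated side at day 1, but the groups overlapped, with mouse 1 low on both sides.

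Chrnb1 encodes the β subunit, through which agrin signalling links the receptor to its scaffold. Chrnb1 lies on chromosome 11 from 69784036 to 69795943 (minus strand). It had the highest denervated level of the 5 genes in TPM, with 81.2, 127, and 103 TPM at day 3 against 14.4, 15.5, and 13.5 in sham. At day 7 it was at 106, 120, and 81.9 TPM in denervated and 34.8, 22.1, and 24.8 in sham samples. Both days had no overlap, and the smaller ratio of day 7 (3.05 to 5.44, against 5.64 to 8.20 at day 3) stood beside higher sham levels. At day 1 the denervated values of 12.9, 37.6, and 35.6 TPM overlapped the sham values of 7.80, 15.2, and 17.3.

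Chrnd encodes the δ subunit, whose surface completes a binding site next to α. It is on chromosome 1 from 87190607 to 87200070 (plus strand), 4587 bp before the start of Chrng. In sham samples Chrnd was at 6.0, 1.54, and 3.57 TPM at day 3, and the denervated values were 45.1, 47.7, and 64.4. At day 7 the sham values were 4.63, 1.33, and 1.75 TPM and the denervated values 43.5, 41.8, and 35.3. The gap was wide at both days, and the ratio of 31.5 in mouse 2 of day 7 was the highest for Chrnd in any mouse. Chrnd was also the only one of Chrna1, Chrnb1, and Chrnd whose sides did not overlap at day 1, with 0.43, 1.51, and 1.24 TPM in sham and 1.93, 7.63, and 5.64 in denervated samples, and the 3 ratios were alike at 4.48, 5.04, and 4.57. The share of all genes without overlap at day 1 is not given here, and Chrnd was not called at that day.

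Chrng encodes the fetal γ subunit and lies on chromosome 1 from 87204657 to 87212694 (plus strand). Its main transcript, Chrng-201, was supported by 1 to 3 reads in the sham samples and 1 read in each denervated sample of day 1. The gene was at 0.0123 to 0.0753 TPM on either side, so no difference was detectable at this depth at day 1, and no ratio is given. At day 3 Chrng was at 0.274, 0.449, and 0.337 TPM in sham samples and at 23.0, 61.8, and 59.6 TPM in denervated samples. The sham level rested on 8 to 13 reads of Chrng-201 per sample, and the denervated level on 634 to 3071. At day 7 the sham values were 1.92, 0.226, and 0.181 TPM and the denervated values 49.6, 44.2, and 23.9. The sham side of mouse 1 of day 7 stood above the other sham samples with 55.7 reads, against 4.6 and 5.0, and that sample also had the highest sham level of day 7 for the other 4 subunits.

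Chrne encodes the adult ε subunit, and lies on chromosome 11 from 70614883 to 70619216 (minus strand), 819 kb from Chrnb1. At day 3 it was at 16.9, 21.9, and 29.1 TPM in sham and 13.5, 19.8, and 35.5 in denervated samples. The day 7 values were 35.1, 20.0, and 25.4 TPM in sham and 21.6, 34.6, and 30.0 in denervated samples. The sides overlapped at both days, and mice moved in both directions. At day 1 all 3 mice were higher on the denervated side, with 6.10, 13.1, and 11.9 TPM in sham and 8.53, 19.1, and 20.6 in denervated samples, but the 2 groups overlapped. A gene of the opposite strand, 4930544D05Rik, overlaps Chrne and shares 0 exonic bases with it.

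The sides were compared at each day with limma on log2(TPM + 0.5), which understates the change of genes near 0, and with Benjamini-Hochberg adjustment over all genes tested. Only genes that reached 1 TPM in 47% or more of the compared samples were tested. At day 1, 4 of the 5 subunits could be tested (Chrng could not) and 0 were called at an adjusted p under 0.05, as were 0% of all 14776 genes. With no adjustment 1 of the 4, Chrnd, had a p under 0.05 (0.015), beside 634 genes of the whole table. At day 3, 4 of 5 subunits were called, where 1.45% of all 14943 genes were, and at day 7, 4 of 5 were called, where 1.53% of 15081 genes were. All calls were higher on the denervated side. Chrng entered the tests of days 3 and 7 only because its denervated samples reached 1 TPM (as 0 sham samples did at day 3 and 1 at day 7), so it could hardly have entered without a difference, and its call adds nothing to the values above.

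The log2 difference of Chrna1 was 3.67 ± 0.29 (SE) at day 3 (limma, adjusted p = 0.0040) and 3.18 ± 0.24 at day 7 (adjusted p = 0.0034). Chrnb1 differed by 2.78 ± 0.17 (adjusted p = 0.0016) and 1.91 ± 0.21 (adjusted p = 0.010), which is the smallest rise of the called subunits at both days. Values for Chrnd were 3.79 ± 0.41 (adjusted p = 0.012) and 3.88 ± 0.37 (adjusted p = 0.0067). Chrng had 5.71 ± 0.38 (adjusted p = 0.0022) and 5.16 ± 0.53 (adjusted p = 0.0078). For Chrne the differences were -0.05 ± 0.36 (adjusted p = 0.97) and 0.11 ± 0.25 (adjusted p = 0.91), each within its error, and the median of all genes was -0.01 at day 3 and 0.04 at day 7. With a pseudocount of 0.1 in place of 0.5 the differences of Chrng were 6.62 and 6.04, and with 1 they were 5.06 and 4.57. The samples were also rescaled to the geometric mean of the muscle markers, which was higher on the denervated side in each mouse of day 7. The markers did not all move together, as 1 of the 9 was called higher and 1 lower at that day. After this rescaling the day 7 differences were 2.83, 1.61, 3.46, and 4.55 for Chrna1, Chrnb1, Chrnd, and Chrng, all 4 still called. The median of all genes moved to -0.22, and the share of all genes called after it is not given here. As before, the call of Chrng adds nothing to its levels.

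The calls within a day did not all hold when 1 mouse was left out, which also left fewer samples per side. The share of all genes called in those smaller fits is not given here. It therefore cannot be told whether the loss of calls was particular to the subunits. Without mouse 2 or mouse 3 of day 3, 0 of 5 were called, and 4 were without mouse 1. At day 7, 0 were called without mouse 1, 1 (Chrna1) without mouse 2, and 4 without mouse 3. The size of the differences changed less. Leaving out a mouse, they ran from 3.41 to 4.15 at day 3 and from 2.96 to 3.36 at day 7 for Chrna1, from 2.67 to 2.94 and from 1.65 to 2.06 for Chrnb1, from 3.40 to 4.28 and from 3.55 to 4.26 for Chrnd, and from 5.48 to 6.10 and from 4.77 to 5.56 for Chrng.

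**Figure D2:**
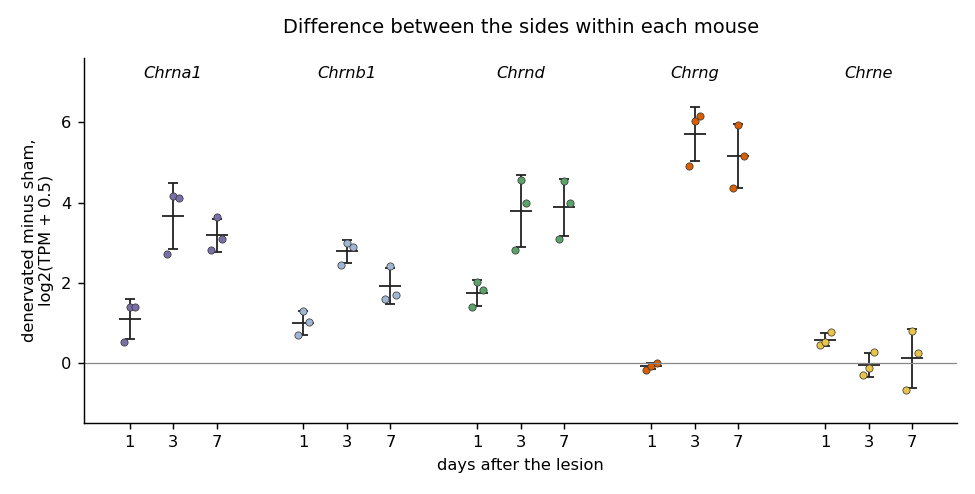
Denervated minus sham within each mouse on log2(TPM + 0.5), for the 5 subunit genes at days 1, 3, and 7. Points are mice, and the horizontal mark and bar give the mean and SD of 3 mice. Means for Chrna1, Chrnb1, and Chrnd are 1.10, 1.00, and 1.74 at day 1 and 3.67, 2.78, and 3.79 at day 3, and Chrne stays between -0.69 and 0.78 in every mouse.

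Over all days, with a term for the day, Chrna1, Chrnb1, and Chrnd were called, 3 of 4 tested, where 3.1% of all genes were. Their log2 differences were 2.65 ± 0.37, 1.89 ± 0.26, and 3.14 ± 0.36 (SE; limma, adjusted p = 0.00056, 0.00056, and 0.00013). Each of these subunits was higher on the denervated side in 9 of 9 mice. Chrne had 0.21 ± 0.22 (adjusted p = 0.76) and was higher in 6 of 9 mice. Leaving out any single mouse left 3 of 4 called, and the share of all genes called in those fits is not given here.

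Whether the difference between the sides itself changed over days was tested as an interaction. The difference at day 3 minus that at day 1 was 2.57 ± 0.65 (SE) on the log2 scale for Chrna1, 1.78 ± 0.51 for Chrnb1, 2.05 ± 0.70 for Chrnd, and -0.64 ± 0.56 for Chrne. Of the 4, 0 passed (limma, adjusted p = 0.17, 0.24, 0.35, and 0.82), where 0.122% of all genes did. A fit with a term for each mouse passed 2 of 4, Chrna1 (limma, adjusted p = 0.048) and Chrnb1 (adjusted p = 0.028), where 0.461% of genes did. The same count, 2 of 4, was reached without a block when mouse 1 of day 1, the mouse with little muscle, was left out. The share of all genes that passed in that smaller fit is not given here, so whether the change was particular to the subunits cannot be told. From day 1 to day 7, 0 of 4 passed (0.163% of genes), and from day 3 to day 7, 0 of 4 (0% of genes). With no adjustment, 3, 2, and 0 of the 4 had a p under 0.05 in these 3 comparisons, beside 1360, 1054, and 1013 of all 14757 genes.

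Levels were also compared between days on each side alone, in different mice. On the denervated side 4 of 5 subunits were higher at day 3 than at day 1 (11.6% of all genes were called) and 4 of 5 at day 7 than at day 1 (21.3%), in both cases all but Chrne. From day 1 to day 3, Chrna1 rose by 3.70 ± 0.48 (SE) on the log2 scale (limma, adjusted p = 0.0036), Chrnb1 by 1.96 ± 0.38 (adjusted p = 0.016), Chrnd by 3.40 ± 0.39 (adjusted p = 0.0025), and Chrng by 6.41 ± 0.39 (adjusted p = 0.00033). Chrng was at 0.0123 to 0.0276 TPM in the denervated samples of day 1 and entered these tests only through the later days, so its calls, which the counts of 4 include, add nothing to its levels. Without mouse 2 or mouse 3 of day 3 the count for day 3 against day 1 was 3 of 5, as Chrnb1 was no longer called. The share of all genes called in those 2 fits is not given here. From day 3 to day 7, 0 of 5 were called (0.211% of genes) and 0 had an unadjusted p under 0.05, beside 2061 of all 14701 genes. The differences were -0.56 ± 0.48 for Chrna1, -0.01 ± 0.38 for Chrnb1, -0.37 ± 0.39 for Chrnd, and -0.23 ± 0.39 for Chrng. For Chrnd the 2 groups did not overlap (45.1 to 64.4 and 35.3 to 43.5 TPM).

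The order of days on the denervated side depended on the scaling. The muscle markers summed to 5850 to 13200 TPM in denervated samples of day 1, 15800 to 19000 at day 3, and 23200 to 24300 at day 7. After every sample was rescaled to the geometric mean of these markers, Chrna1, Chrnb1, Chrnd, and Chrng (4 of 5) were called lower at day 7 than at day 3. Their log2 differences were -1.45, -0.90, -1.25, and -1.11, while the median of all genes moved to -0.83. The whole table thus moved the same way, and Chrnb1 lay closest to that median. The share of all genes called after this rescaling is not given here. From day 1 to day 7 the rescaled difference of Chrnb1 was 0.19, no longer called, and that of Chrne was -0.84, called as lower (limma, adjusted p = 0.57 and 0.031), with a median of all genes at -1.65. Chrna1, Chrnd, and Chrng were still called higher there, by 1.46, 1.36, and 5.24.

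On the sham side 0 of 4 were called from day 1 to day 3 (0.0818% of genes), from day 3 to day 7 (0.0136%), or from day 1 to day 7 (0.00682%). With no adjustment 3, 1, and 3 of the 4 had a p under 0.05, beside 1604, 1595, and 2114 of all 14671 genes. Chrne had the larger sham values at the later days, 10.4 ± 3.74, 22.6 ± 6.15, and 26.8 ± 7.65 TPM (SD, n = 3 mice) for days 1, 3, and 7, but the difference of 1.36 ± 0.32 (SE) on the log2 scale from day 1 to day 7 did not pass (limma, adjusted p = 0.19). Rescaled to the muscle markers, the difference of Chrne in sham was -0.02 from day 1 to day 7, and 0.34 in place of 1.12 from day 1 to day 3. In the order of group means, the 3 highest groups of Chrne (day 3 denervated, day 7 sham, and day 7 denervated) did not differ beyond their ranges, and no neighbouring groups in that order did. For Chrna1, Chrnb1, and Chrnd the 2 top groups were the denervated samples of days 3 and 7, set apart by a gap from the denervated samples of day 1.

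The make-up of the receptor transcripts was then described as the share of each gene in the summed TPM of the 5, a measure that the scaling between samples cannot move. In sham samples Chrnb1 and Chrne held most of it. Chrnb1 made up 49.8 ± 2.98% (SD, n = 3 mice), 31.5 ± 4.82%, and 44.1 ± 2.76% at days 1, 3, and 7, and Chrne 38.5 ± 2.33%, 48.4 ± 9.82%, and 43.1 ± 0.85%. Chrna1 made up 7.79%, 11.3%, and 7.89% on average, and Chrnd 3.71%, 7.98%, and 3.82%. Chrng was 0.246%, 0.770%, and 1.04%.

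On the denervated side Chrne made up 7.46 ± 2.26% of the sum at day 3 and 11.2 ± 2.85% at day 7, lower than on the sham side in all 3 mice of each day, with differences of -46.7 to -31.2 percentage points at day 3. Chrng held 15.4 ± 4.11% at day 3 and 15 ± 3.88% at day 7. Chrna1 reached 24.0 ± 1.35% and 18.6 ± 3.84%, and Chrnd 17.9 ± 3.40% and 15.6 ± 0.786%. Chrnb1 was the largest part on this side, at 35.2 ± 5.13% and 39.6 ± 2.64%, but its share was higher on the denervated side in all 3 mice at day 3 (by 2.30 to 5.94 percentage points) and lower in all 3 at day 7 (from -6.17 to -2.54). With coding transcripts alone the day 3 direction turned, and the share of Chrnb1 was lower on the denervated side in all 3 mice at day 3 (from -9.55 to -0.22) and at day 7 (from -15.2 to -7.5). At day 1 the share of Chrnd was higher on the denervated side by 4.38 to 5.87 percentage points in the 3 mice, and by 6.83 to 7.96 with coding transcripts alone. The differences of Chrne at day 1 were -13.8 to -5.5 percentage points, but with coding transcripts alone they ran from -13.5 to 9.2, with mouse 1 higher and mice 2 and 3 lower. No test was made of the shares.

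**Figure D3:**
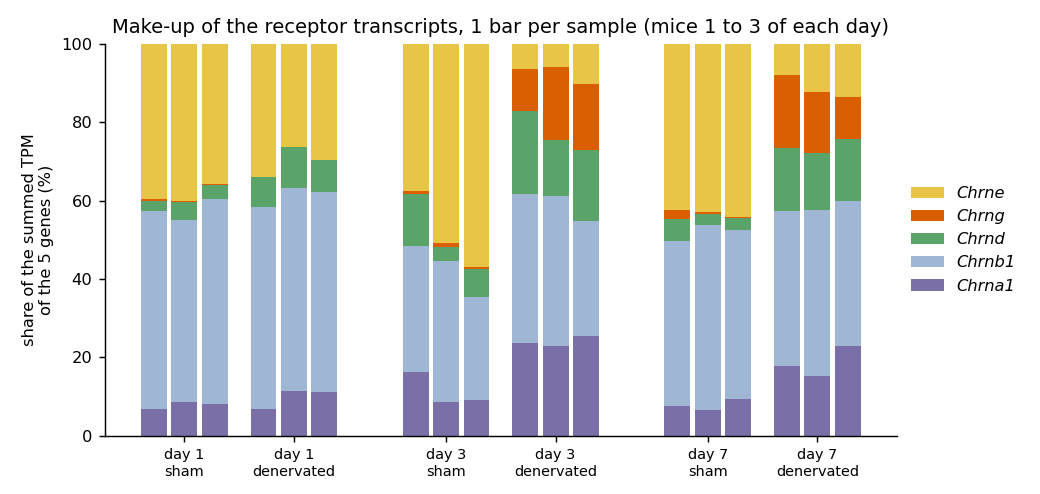
Share (%) of each subunit gene in the summed TPM of the 5 genes, 1 bar per sample in the order of mice 1 to 3. Chrne (yellow) is the top 37.6 to 56.8% of each sham bar at day 3 and 5.97 to 10.1% of each denervated bar, where Chrng (orange) takes up 10.8 to 18.6%.

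The γ to ε balance was taken within each sample as log2((Chrng + 0.5)/(Chrne + 0.5)) and compared between the sides of each mouse. As a share of γ plus ε, γ made up 1.14 to 2.01% in sham and 62.7 to 75.7% in denervated samples at day 3, and 0.707 to 5.18% and 44.4 to 69.7% at day 7. Chrng thus passed Chrne in TPM in all 3 denervated samples of day 3, with 1.68 to 3.12 times as much, and at day 7 in mice 1 and 2 (2.30 and 1.28 times) but not in mouse 3 (0.799 times). At day 1 γ was 0.232 to 1.22% in sham and 0.134 to 0.144% in denervated samples, on 1 to 3 reads.

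Within mice the balance differed between the sides by 5.23, 6.18, and 5.89 on the log2 scale at day 3 and by 5.06, 5.17, and 4.93 at day 7. At day 1 it was lower on the denervated side, by -0.62, -0.60, and -0.77, where Chrng was far under the pseudocount on both sides and the value rested on Chrne. Over the 9 mice the mean difference was 3.38 ± 3.06 (SD), higher in 6 of 9 (exact sign-flip permutation test, two-sided, p = 0.031, where 9 mice allow 0.0039). For the 3 mice of a single day the same exact test could not go below p = 0.25. In the same exact test, leaving out any 1 mouse of day 3 or day 7 gave p = 0.062, and any 1 mouse of day 1 p = 0.031. The differences of day 1 were small beside the others, so these p were set by the number of mice of days 3 and 7. They cannot show whether the balance rests on a single mouse. The 6 mice of days 3 and 7 alone allow no p under 0.031 in this test.

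**Figure D4:**
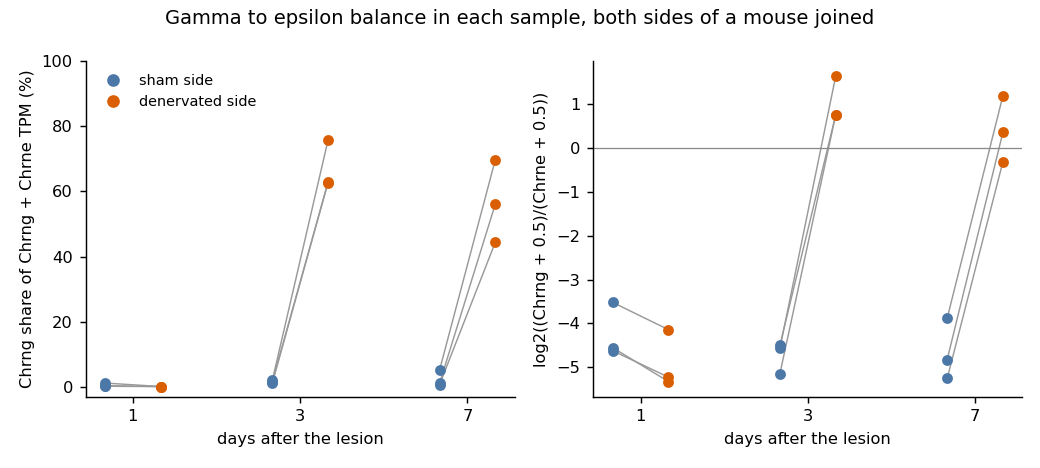
Chrng as a percentage of Chrng plus Chrne TPM (left) and log2((Chrng + 0.5)/(Chrne + 0.5)) (right) in each sample, with the sides of a mouse joined. Sham samples (blue) stay at or below 5.18% at all days, and denervated samples (orange) are at 0.134 to 0.144% at day 1, 62.7 to 75.7% at day 3, and 44.4 to 69.7% at day 7.

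The promoters of the subunit genes are shown because 4 of the genes were called higher together and Chrne was not. E-boxes, with the letters CANNTG, are bound by myogenic factors such as myogenin, and the N-box, CCGGAA, by ETS factors that act in nuclei under the nerve ending. The 250 bases before the RefSeq start were read from GRCm38.p6 for 4 of the 5 genes, at chr2:73580339-73580588 (minus strand) for Chrna1, chr11:69795938-69796187 (minus strand) for Chrnb1, chr1:87205561-87205810 (plus strand) for Chrng, and chr11:70619195-70619444 (minus strand) for Chrne. RefSeq starts differ from the gene ends given above for some of them. Capitals mark CANNTG and CCGGAA, each written 5′ to 3′ along the gene.
Chrna1: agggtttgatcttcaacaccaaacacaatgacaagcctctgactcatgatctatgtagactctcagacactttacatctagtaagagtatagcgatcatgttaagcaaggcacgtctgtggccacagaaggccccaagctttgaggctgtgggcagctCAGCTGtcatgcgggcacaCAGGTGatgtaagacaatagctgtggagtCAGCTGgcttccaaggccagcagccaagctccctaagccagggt
Chrnb1: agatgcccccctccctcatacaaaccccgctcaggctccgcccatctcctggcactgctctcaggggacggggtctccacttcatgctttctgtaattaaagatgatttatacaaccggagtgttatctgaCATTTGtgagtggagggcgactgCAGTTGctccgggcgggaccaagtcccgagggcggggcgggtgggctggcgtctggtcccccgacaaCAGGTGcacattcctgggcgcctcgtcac
Chrng: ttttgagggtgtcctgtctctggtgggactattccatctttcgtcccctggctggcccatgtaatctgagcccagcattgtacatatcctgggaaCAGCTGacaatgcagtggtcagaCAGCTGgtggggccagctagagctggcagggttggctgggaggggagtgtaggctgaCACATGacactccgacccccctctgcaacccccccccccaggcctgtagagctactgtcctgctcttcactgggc
Chrne: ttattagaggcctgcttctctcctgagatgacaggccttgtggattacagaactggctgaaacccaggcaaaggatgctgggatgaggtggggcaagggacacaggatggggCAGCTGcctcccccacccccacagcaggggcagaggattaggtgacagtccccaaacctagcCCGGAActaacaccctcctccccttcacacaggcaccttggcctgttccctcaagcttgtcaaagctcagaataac

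Chrna1, Chrnb1, and Chrng each held 3 matches to CANNTG, which 12.2% of all 32851 promoters of this length held 3 or more times, and Chrne held 1, as 66.2% held at least 1. Of these, the form CAGCTG was present 2 times in Chrna1 (92 and 44 bases before the start) and in Chrng (155 and 132 bases before it), 1 time in Chrne (138 bases before it), and 0 times in Chrnb1. At least 2 matches to CAGCTG were found in 1.26% of promoters and at least 1 in 13%. CCGGAA, searched on both strands, was found in Chrne (76 bases before the start) and in 12% of promoters. These are matches of letters, and binding was not measured. Whether they bear on the difference between the genes was not tested.

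By transcript, most of the level of Chrna1, Chrnb1, Chrnd, and Chrng was in 1 coding transcript on both sides. Chrna1 has 1 transcript, Chrnb1 has 4, Chrnd 3, Chrng 5, and Chrne 4, of which 1, 1, 2, 4, and 2 code for protein. At day 3, 5 of 14 tested transcripts were called (0.299% of all transcripts were), and at day 7, 4 of 14 (0.385%), all higher on the denervated side. At day 1, 0 of 9 were called (0%). The calls at day 3 were Chrna1-201, Chrnb1-201, Chrnd-201, Chrnd-202, and Chrng-201, with log2 differences of 3.67, 2.75, 3.61, 4.13, and 5.55 (limma, adjusted p = 0.016, 0.0065, 0.047, 0.016, and 0.012), and those of day 7 were the same without Chrnd-202. Chrnd-202 at day 3 and Chrng-201 at both days could enter the test only because their denervated samples reached 1 TPM, so their calls were close to fixed by the filter and add nothing to their levels, and the counts of 5 and 4 include them. With the mouse as a block, 0 were called at day 3 (0% of transcripts) and 0 at day 7 (0%). When any 1 mouse of day 3 or day 7 was left out, 0 were called at that day, and the share of all transcripts is not given here.

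Chrnb1-201, the coding transcript, held 73.5 to 92.7% of the Chrnb1 level over all samples. The 3 other Chrnb1 transcripts code for no protein and together held 8.96 to 13.5% in sham and 17.9 to 26.5% in denervated samples at day 1. The sides overlapped at day 3 (7.34 to 20.8% and 11.9 to 17.9%) and at day 7 (11.1 to 24.1% and 15.7 to 20.6%). Chrnd-201 held 76.6 to 79.2% of the gene in denervated samples of day 3. Chrnd-202, which also codes for protein but has 1233 coding bases against 1560, was at 5.14 to 12.3 TPM in denervated samples of day 3, between 11.4 and 19.0% of the gene, and at 8.34e-05 TPM or less in the sham samples of that day. This did not hold in every mouse of day 7, where the sham side of mouse 1 had 1.11 TPM, 24.0% of the gene. The sham sides of mice 2 and 3 were listed at 0, and denervated samples of day 7 had 2.67 to 6.11 TPM, between 7.58 and 14.6% of the gene.

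Chrng-201 held 84.6 to 88.5% of Chrng in denervated samples of day 3 and 83.7 to 87.4% at day 7. Chrng-203 was at 1.88 to 4.48 TPM and Chrng-204 at 0.663 to 1.31 TPM in denervated samples of day 3, and both were listed at 0 in every sham sample. At the few reads that the sham samples had of the gene, shares of that size would not have been detectable. Chrng-202 was above 0 in 1 of 18 samples.

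Chrne was spread over its transcripts unlike the others. The coding transcripts Chrne-201 and Chrne-202 held 23.2% and 31.3% of all Chrne TPM, and Chrne-203 and Chrne-204, short transcripts of the 3′ end with a retained intron (641 and 518 bases long), held 32.0% and 13.5%. The retained-intron part was 50.9 ± 5.17% (SD, n = 3 mice) in sham and 50.7 ± 5.53% in denervated samples at day 3, and 41.7 ± 6.34% and 30.3 ± 12.2% at day 7. Chrne-201 and Chrne-202 have 1482 and 1479 coding bases, and how reads that fit both were split between them is uncertain. Chrne-201 was higher on the denervated side in all 3 mice at day 3 (by 0.13 to 1.76 on the log2 scale) and lower in all 3 at day 7 (from -1.27 to -0.06), and Chrne-202 was higher in 1 of 3 and 2 of 3. Their sum was at 11 ± 2.77 TPM in sham and 11.6 ± 6.96 in denervated samples at day 3, and at 16 ± 6.31 and 19.6 ± 3.33 at day 7, within the spread between mice.

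With coding transcripts alone, γ made up 74.6 to 87.3% of γ plus ε in denervated samples at day 3 and 50.2 to 74.4% at day 7, and 1.24 to 7.17% in sham samples at day 7. The balance then differed within mice by 3.31 ± 3.04 on average (exact sign-flip permutation test, two-sided, n = 9 mice, p = 0.031), a version chosen after the data were seen.

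**Figure D5:**
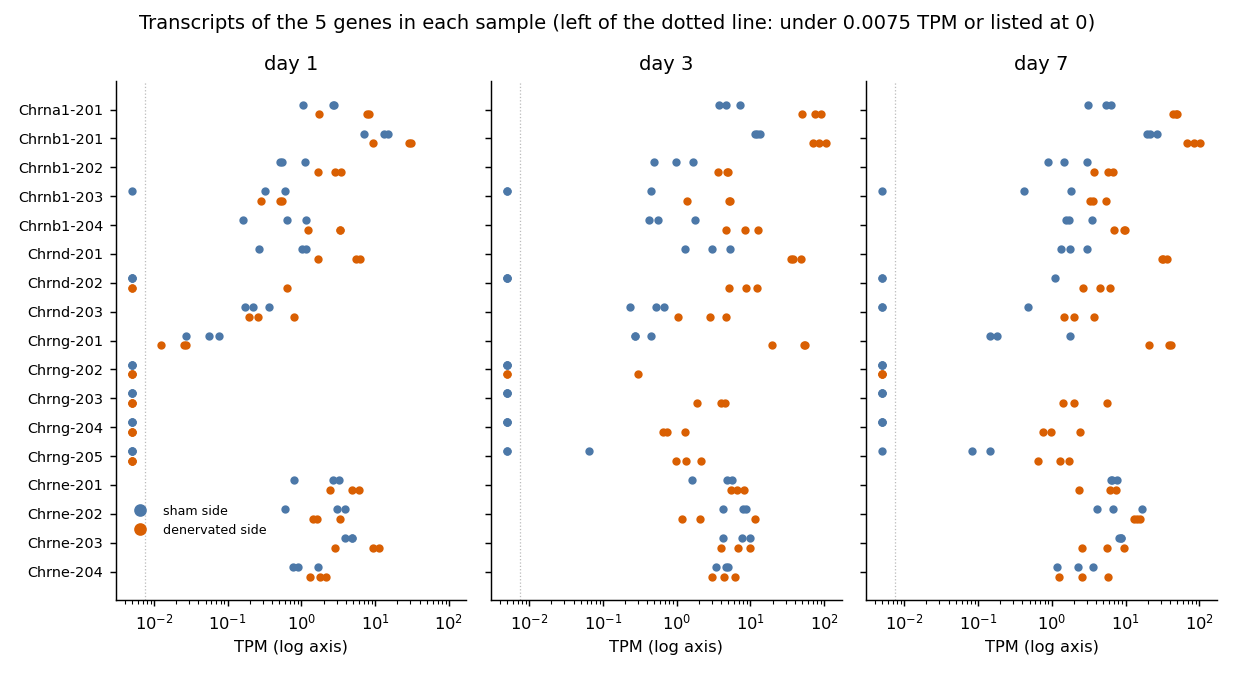
TPM (log axis) of the 17 transcripts in each sham (blue) and denervated (orange) sample at days 1, 3, and 7. Points left of the dotted line are under 0.0075 TPM or listed at 0. At day 3 the sides are apart for Chrna1-201 and for every transcript of Chrnb1, Chrnd, and Chrng except Chrng-202. The sides overlap for the 4 Chrne transcripts at all 3 days.

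Genes that work with the receptor were counted from lists that were chosen with earlier results of these data known. Of 15 genes for receptor clustering and the synapse (Agrn, Lrp4, Rapsn, Ache, and others), 14 could be tested, and 2 were called at day 3, both higher, where 1.45% of all genes were called in either direction, with a median log2 difference of -0.02 over the list and -0.01 over all genes. They were Musk, the kinase that starts receptor clustering, with 0.399 ± 0.0514 TPM (SD, n = 3 mice) in sham and 5.43 ± 0.772 in denervated samples (limma, log2 difference 2.71 ± 0.18 (SE), adjusted p = 0.0024), and Dok7, its activator, with 6.08 ± 0.777 and 24.1 ± 4.38 TPM (1.90 ± 0.16, adjusted p = 0.0047). Musk was under 1 TPM in all sham samples of day 3 and entered the test only through its denervated samples, so its call adds nothing to those levels. At day 7, 0 of 14 were called. The mouse block moved Musk at day 7 from an adjusted p of 0.057 to 0.038 (limma, log2 difference 1.57 ± 0.28). Of 11 other nicotinic subunit genes, 1 could be tested at each day and 0 were called, and of 5 genes of receptor assembly 5 were tested and 0 were called.

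Of 13 regulators of subunit transcription, 11 could be tested, with 5 higher and 1 lower at day 3 and 5 higher and 0 lower at day 7, where 1.45% and 1.53% of all genes were called. The list's median log2 difference was 0.50 at day 3 and 0.77 at day 7, against -0.01 and 0.04 over all genes. Myog (myogenin) was at 1.38 ± 0.834 TPM in sham and 31.5 ± 18 in denervated samples at day 1, which was not called (limma, adjusted p = 0.28). It went from 4.65 ± 2.15 to 181 ± 17.1 TPM at day 3 (limma, adjusted p = 0.00089), and Myod1, another myogenic factor, from 4.58 ± 0.996 to 79.3 ± 37.4 (adjusted p = 0.0072). Myf6, the factor of mature fibres, went from 34.7 ± 5.28 to 140 ± 17.3 TPM at day 3 and from 41.0 ± 1.79 to 212 ± 19.6 at day 7 (adjusted p = 0.0036 and 0.0021). Mef2a rose by 1.28 ± 0.15 (SE) on the log2 scale at day 3 (limma, adjusted p = 0.017). Hdac4, a deacetylase named here after its value was seen, rose by 1.25 at day 3 (adjusted p = 0.017) and 1.16 at day 7 (adjusted p = 0.0089). The lower gene was Hdac9, with 2.64 ± 0.522 and 0.694 ± 0.0942 TPM at day 3 (limma, log2 difference -1.39 ± 0.21 (SE), adjusted p = 0.039), and in the fit with the mouse block its adjusted p was 0.073. Hdac9 was under 1 TPM in all denervated samples of day 3 and entered the test only through the sham samples, so its call adds nothing to those levels.

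The genes whose 9 differences between the sides were most like those of a subunit were ranked by the root mean square difference over the 9 mice on the log2 scale. The 14753 genes ranked left out the subunits themselves, so the likeness of the subunits to each other is not given here. For Chrna1 these were Gadd45a (0.60), Ankrd23 (0.64), and Plekhh1 (0.65), and for Chrnb1 Tnfrsf12a (0.40), Ttyh1 (0.42), and Musk (0.46). Among the ranked genes Chrnd was most like Ankrd2 (0.79), Gadd45a (0.84), and Gdf5 (0.89). None of them was close to Chrng, whose nearest were Ankrd2 (1.87), Ankrd1 (2.01), and Gadd45a (2.04). These 3 genes had differences of 1.24 to 2.55 at day 1, where Chrng was near 0 on both sides.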

How the data were processed

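RNA was sequenced from 18 whisker pad samples, the denervated and sham side of 9 mice. Per the labels and the study's methods, the authors made libraries with the TruSeq RNA v2 kit (strand not stated) and converted reads with bcl2fastq 2.17.1.14. Duplicate reads were taken out by ParDRe and adapters by Fastp, and transcripts were quantified with kallisto 0.43.1 against Ensembl mouse cDNA (GRCm38). The deposited values are TPM per transcript, normalised between samples by the authors in sleuth, and are a signal rather than plain TPM. They sum to 833186 to 1143839 per sample rather than to a fixed total, where the design had assumed plain TPM. Among low values of transcripts of at least 2000 bases, 74.3 to 84.2% lay within 0.1 read of a whole number of reads (20% if spread evenly), from which depth and Chrng reads were estimated. Read numbers cover counting error only.

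Transcripts were matched to GENCODE M21 by identifier (98.46%, with 99.48% of TPM), and TPM were summed by gene. Sides were compared per day with limma 3.58.1 (R 4.3.3; mean-variance trend, Benjamini-Hochberg over all features tested) on log2(TPM + 0.5), for features that reached 1 TPM in 47% or more of the compared samples. The balance was tested by an exact sign-flip permutation test in Python 3.11.15 with numpy 2.4.6, pandas 2.3.3, and scipy 1.17.1, and plots were drawn with matplotlib 3.10.9. Scripts were tested on simulated data. Both sides of a mouse share a number in the labels and the same-mouse samples deviated together (mean r = 0.30, 0.32, and 0.34 at days 1, 3, and 7, lowest 0.13, 0.27, and 0.15), so that the mouse could serve as a block, which was fitted as an alternative. Other alternatives were the pseudocount, the filter, the trend, 3 rescalings, coding transcripts alone, and leaving out each mouse. The members, lists, and markers were chosen with earlier results of these data known. Named genes were the 5 subunits and their transcripts, and the 3 genes, subunits aside, most like a subunit. Up to 5 genes per list that passed at day 3 or day 7 were also named, in order of their change at day 3. P-values of the main fits rest on the spread between samples, with the sides of a mouse taken as separate samples. Those of the mouse block and the sign-flip test rest on differences within mice.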

Additional observations from a re-analysis of the deposited data

Results flagged for a closer look

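Some differences between the sides took opposite directions in all 3 mice of 2 days, and none of these contrasts between days was tested. The share of Chrnb1 in the summed TPM of the 5 subunits was 3.71 percentage points higher on the denervated side at day 3 and differed by -4.58 at day 7, a contrast of -8.29 points. With coding transcripts alone the differences were -5.58 at day 3 and -12.6 at day 7, so the opposite directions were not seen there. The γ to ε balance differed between the sides by -0.664 at day 1, 5.76 at day 3, and 5.05 at day 7 on the log2 scale, which gives contrasts with day 1 of 6.43 and 5.72. Chrng had 1 to 3 reads per sample at day 1. For the coding transcript Chrne-201 the difference was 0.917 at day 1, 0.804 at day 3, and -0.463 at day 7 on the log2 scale, with contrasts of -1.38 (day 7 minus day 1) and -1.27 (day 7 minus day 3). Reads that fit both are split with Chrne-202, which has nearly the same coding length. Groups held 3 samples, too few to look for single samples that stand apart.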

How the results depend on the processing

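Of 466 alternative values of the subunits' log2 differences, 439 kept their direction and side of the threshold, 15 were no longer called (each after leaving out a mouse), 4 became called, and 8 changed sign, of which 0 belonged to the 11 called values. Leaving out a mouse gave 0 to 4 called subunits at day 3 and 0 to 4 at day 7, 0 to 2 for the contrast of day 3 with day 1, 0 to 0 called transcripts at day 3 and 0 to 0 at day 7, and a balance of 3.04 to 3.90. With the mouse as a replicate block, the contrast of day 3 with day 1 gave 2 subunits, and 0 transcripts were called at day 3 and 0 at day 7. The block changed no other call of a subunit. Without a filter on low values, 1 subunit passed in the contrast of day 3 with day 1 and 1 in that of day 7 with day 1. In both it was Chrng, which had 1 to 3 reads per sample at day 1, so these calls add nothing to its levels. In that setting 1 transcript was called at day 3 and 0 at day 7, with more features tested. The share of all features that passed without the filter is not given here. Rescaling to muscle markers gave 4 called subunits for day 7 against day 3 on the denervated side, where the median of all genes moved to -0.83. It also gave a log2 difference of -0.17 for Chrne at day 7, and for day 7 minus day 3 -0.33 for Chrnd and -0.11 for Chrne. It moved the median of all genes by -0.26 at day 7, to -0.22. Without single mice, Chrne ranged from -0.22 to 0.07 at day 3 and from -0.23 to 0.51 at day 7, and the contrast of day 7 with day 3 from -0.40 to 0.47 for Chrnd (-0.24 without mouse 2 of day 7) and from -0.17 to 0.56 for Chrne. With coding transcripts alone, the mean shares at day 1 were 11% for Chrna1, 62.5% for Chrnb1, and 22.3% for Chrne in sham and 13.7%, 57.1%, and 17.9% in denervated samples, with 11.2% for Chrnd and 0.0589% for Chrng in the latter. At day 3 they were 16% for Chrna1, 38.9% for Chrnb1, 1.07% for Chrng, and 34.4% for Chrne in sham, and 26.9% for Chrna1 and 4.22% for Chrne in denervated samples. At day 7 they were 10.6% for Chrna1, 49.6% for Chrnb1, and 33.7% for Chrne in sham, and 16.7% for Chrnd in denervated samples. The difference between the sides in the share of Chrnb1 then changed sign, from 1.70 to -5.40 percentage points at day 1 and from 3.71 to -5.58 at day 3, where its denervated share was 33.3%, and the other 13 of 15 differences in share kept their sign. The mean balance was 3.90 with a pseudocount of 0.1 and 2.99 with 1. The balance over days 3 and 7 alone, chosen after seeing the data, was 5.41 ± 0.50 (SD; exact sign-flip permutation test, n = 6 mice, p = 0.031, the smallest that 6 mice allow). The cause of these shifts was not tested. Depth limits Chrng at day 1, where 3 reads were up to 0.13 TPM.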
